A study of Mus musculus with 9 samples.

Results

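The AP-1 transcription factor genes described here are Fos, Fosb, Fosl1, Fosl2, Jun, Junb, Jund, Atf3 and Maff, 9 of the 34669 genes in a table of mouse kidney messenger RNA. They were chosen by name because they were lower in TJ0113-treated than in vehicle-treated injured kidneys, so that difference is given below as a description, with no test. The libraries came from the renal cortex of wild-type male C57BL/6 mice, 10 weeks old, in 3 groups of 3. In the TJ0113 and vehicle groups the pedicles of both kidneys were clamped for 30 min (bilateral ischemia-reperfusion injury, bIRI), and the cortex was profiled on day 14. The TJ0113 group received the compound, and the vehicle group its carrier, by gavage each day from 3 days before the operation. The sham group was operated on without clamping; the labels give it no gavage and no day, so neither can be told apart from clamping in a difference from sham. The sample labels spell the compound TJ013 and the series text TJ0113, and both are read as the same compound. Replicate libraries are separate samples in the labels, and p-values measure only the spread between them.

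AP-1 is a family of dimers that bind DNA through a basic leucine zipper (bZIP). Fos proteins need a partner, usually a Jun protein, whereas Jun proteins can also pair with each other, and the mixture of partners sets which sites are bound and how strongly they act. Many of the genes are immediate early genes: growth factors, stress and MAP kinase signalling switch them on within minutes, and their messenger RNAs are short-lived. In the kidney, AP-1 genes are known to rise soon after ischemia, and Jun is a substrate of the stress kinase JNK in injured tubules.

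The genes lie apart on the chromosomes, and their sequences carry known elements of early response genes. In GRCm38, Fos lies on the plus strand at chr12:85473890-85477273, Atf3 on the minus strand at chr1:191170296-191218039 and Jun on the minus strand at chr4:95049034-95052222. Jun, Junb and Jund have a single exon each. A TATTTAT, the core of many AU-rich elements that shorten the life of a messenger RNA, is in the annotated 3′ UTR (GENCODE M21) of 8 of the 9 genes, all but Junb, against 26.8% of 12908 tested genes with a 3′ UTR. Fos, Fosl2 and Maff hold 2 or more, against 8.9% of those genes. The stretches of 30 bases around a TATTTAT (in capitals, transcript strand) are shown for a Fos gene, a Jun gene and both partner genes, since messenger RNA levels are what was measured.
Fos: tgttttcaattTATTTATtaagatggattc
Jun: ttgcttgtgcaTATTTATaatagcgttcgt
Atf3: aaaatattactTATTTATcccagtattcct
Maff: ttccacactctTATTTATtgcacgaatcta

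RefSeq (GRCm38.p6) gives promoter windows for 8 of the 9 genes, with several starts for Maff; Fosl1 has none here. The 250 bases before each start were searched on both strands. TGACG, the core of the cyclic AMP response element (CRE), was in at least 1 window of 5 of the 8 genes, beside 17.77% of 32851 single windows. Maff was searched in 3 windows and each other gene in 1, so counts by gene and shares of windows differ in unit. The full palindrome TGACGTCA, which contains that core, was in a Maff window at positions -29 to -22, against 1.55% of windows. The variant TGACATCA, known from the Jun promoter as a site of Jun and ATF dimers, was at positions -45 to -38 in Jun and also in another Maff window, against 2.93% of windows. The AP-1 site TGANTCA, in 6.75% of windows, was in none of the 8 genes' windows, nor was the CArG box of serum response factor, in 1.47%. Sequence farther than 250 bases from a start was not searched, so neither element can be called absent from these promoters. The Jund start used, chr8:70697739 (plus strand), lies before the annotated Jund gene, which starts at chr8:70698949. A match is a run of letters and not a measured binding site. The 120 bases before the start are printed for 4 genes whose levels the results turn on, with the matches in capitals: Fos at chr12:85473770-85473889 (plus strand), Jun at chr4:95052223-95052342 (minus strand), Atf3 at chr1:191183334-191183453 (minus strand) and a Maff start at chr15:79347400-79347519 (plus strand).
Fos: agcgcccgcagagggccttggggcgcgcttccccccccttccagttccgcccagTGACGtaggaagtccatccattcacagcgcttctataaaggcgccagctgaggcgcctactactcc
Jun: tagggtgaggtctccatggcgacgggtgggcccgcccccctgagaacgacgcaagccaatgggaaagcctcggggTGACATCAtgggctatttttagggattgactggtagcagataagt
Atf3: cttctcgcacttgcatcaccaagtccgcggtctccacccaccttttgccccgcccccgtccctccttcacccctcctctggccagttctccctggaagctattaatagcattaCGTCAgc
Maff: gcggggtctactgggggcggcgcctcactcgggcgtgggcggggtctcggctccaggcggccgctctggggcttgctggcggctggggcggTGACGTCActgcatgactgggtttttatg

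Each library held 62440000 to 85480000 counted reads, as recovered from the steps of the FPKM values (fragments scaled by transcript length and library size). On the first principal component, which held 75.5% of the variance, vehicle library 2 lay at -8, nearest to the sham libraries, and TJ0113 library 2 at 4.5. The other vehicle libraries lay at 30.8 and 70.6. Proximal tubule markers, which define most of the cortex, were present in every library, with summed levels of 8415 to 28630 FPKM in TJ0113 kidneys, 2440 to 28900 FPKM in vehicle kidneys and 41490 to 48500 FPKM in sham kidneys. A single gene, Kap, held 5774 to 24780 FPKM of these sums in TJ0113 kidneys, 652.6 to 24420 in vehicle kidneys and 36330 to 43980 in sham kidneys. Of the 9 AP-1 genes, 8 passed a filter of a mean of 0.5 FPKM and were tested with limma on log2(FPKM + 1) among 15453 genes; Fosl1, at a mean of 0.2802 FPKM, was not. Fosb passed the filter only through the vehicle libraries, so it had to differ between groups; no test of it is given, and it is left out of the counts of genes called.

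All 9 AP-1 genes were higher in injured than in sham cortex, with each of the 6 injured libraries above each of the 3 sham libraries. Among all tested genes, 39.9% were higher without overlap in this way. The test set the mean of both injured groups against sham, a contrast that does not depend on the difference between TJ0113 and vehicle. In it the other 7 tested AP-1 genes, all but Fosb, rose at an adjusted p under 0.05 (limma, Benjamini-Hochberg), against 38.5% of tested genes that were called higher and 7.8% called lower. The 7 had a median log2 change of 1.91 beyond that of the median gene, which itself stood 0.28 above sham; log2 changes below are given relative to the median gene, and adjusted p-values test the change as deposited. The genes were chosen with results of these data known, so their counts are read only against these shares. In bulk cortex, more cells of a type and more RNA per cell cannot be told apart.

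**Figure D1:**
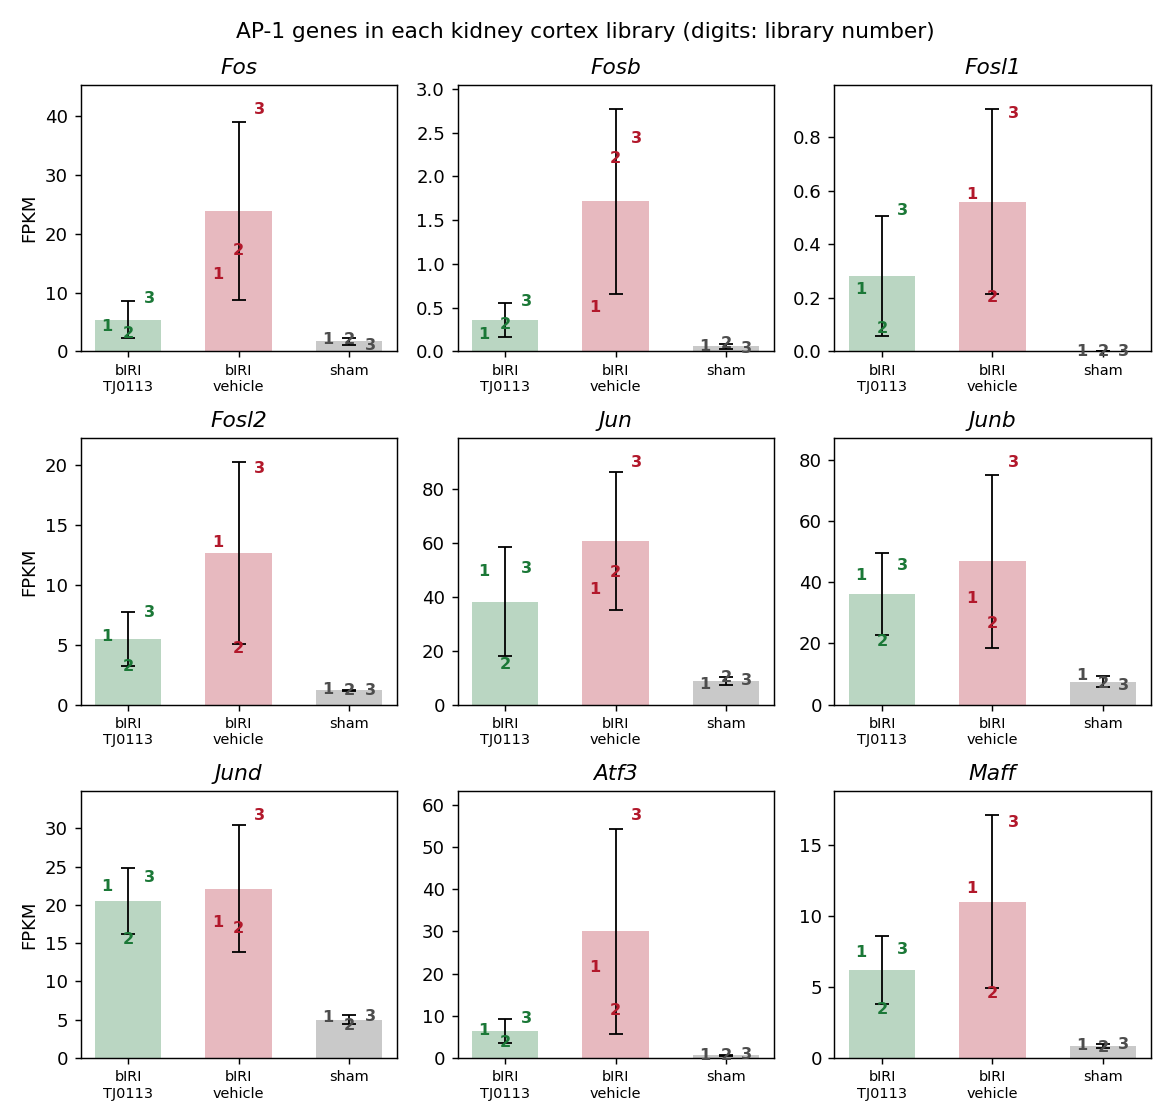
Level of each AP-1 gene in FPKM (linear axes, each panel on its own scale) in bIRI TJ0113, bIRI vehicle and sham cortex. Bars are means of 3 libraries with SD, and digits are the libraries by number. Sham libraries lie below every injured library in all 9 panels, and vehicle library 3 is the highest in all 9.

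Of the Fos family, Fos is the founding member and an immediate early gene that depends on a Jun partner. It had 4.23, 3.02 and 8.91 FPKM in TJ0113 kidneys, 13.1, 17.2 and 41.1 FPKM in vehicle kidneys and 1.98, 2.07 and 1.09 FPKM in sham kidneys. The 3 groups did not overlap, with TJ0113 kidneys between vehicle and sham. The injured groups together stood 1.82 ± 0.37 (SE) log2 units above sham (adjusted p = 0.0046). Fosl2, which encodes Fra-2, a Fos relative without the strong activation domain of Fos, had 5.65, 3.16 and 7.66 FPKM in TJ0113 kidneys, 13.6, 4.65 and 19.8 FPKM in vehicle kidneys and 1.25, 1.14 and 1.20 FPKM in sham kidneys. Vehicle library 2 was lower than TJ0113 libraries 1 and 3, so the injured groups overlapped, while sham stayed apart and nearly constant. Its injured level was 1.69 ± 0.37 log2 units above sham (adjusted p = 0.00535).

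Fosb and Fosl1 were the rarest of the family. Fosb, another immediate early gene, had 0.193, 0.313 and 0.572 FPKM in TJ0113 kidneys, 0.504, 2.21 and 2.43 FPKM in vehicle kidneys and 0.0611, 0.0883 and 0.0322 FPKM in sham kidneys. Vehicle library 1 fell within the TJ0113 range. In counted reads this was 103 to 223 in TJ0113 libraries, 227 to 1049 in vehicle libraries and 14 to 38 in sham libraries. The difference of the injured groups from sham was 0.53 log2 units. Fosl1, which encodes Fra-1, was listed at 0 in all 3 sham libraries and had 40, 14 and 67 reads in TJ0113 libraries and 86, 28 and 125 reads in vehicle libraries. Against a floor of 3 reads in each sham library (a mean of 0.0209 FPKM), its mean was at least 13.5-fold higher in TJ0113 kidneys and at least 26.8-fold higher in vehicle kidneys. An exact two-sided permutation test of log2(FPKM + 1) in 6 injured against 3 sham libraries gave p = 0.0238, the smallest that its 84 arrangements allow.

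The Jun family held the most abundant of these messenger RNAs. Jun had 49.2, 14.8 and 50.4 FPKM in TJ0113 kidneys, 42.8, 48.8 and 89.8 FPKM in vehicle kidneys and 7.33, 10.2 and 9.12 FPKM in sham kidneys. TJ0113 library 2 was far below the other injured libraries and still above sham, and TJ0113 libraries 1 and 3 were above vehicle libraries 1 and 2. Jun stood 1.91 ± 0.38 log2 units above sham with injury (adjusted p = 0.00453). Junb, a Jun relative that often acts against Jun on growth genes, had 42.2, 20.7 and 45.6 FPKM in TJ0113 kidneys, 34.8, 26.6 and 79.2 FPKM in vehicle kidneys and 9.47, 6.77 and 6.27 FPKM in sham kidneys. Without vehicle library 3, the TJ0113 range takes in both other vehicle libraries. Its injured level was 1.93 ± 0.35 log2 units above sham (adjusted p = 0.0038).

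Jund, the Jun gene that most cells keep on at rest, had 22.4, 15.5 and 23.5 FPKM in TJ0113 kidneys, 17.7, 16.9 and 31.7 FPKM in vehicle kidneys and 5.25, 4.26 and 5.38 FPKM in sham kidneys. The injured groups overlapped almost wholly, and both lay well above sham. Its change with injury was 1.59 ± 0.21 log2 units (adjusted p = 0.00211), with the smallest SE of the 3 Jun genes.

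Atf3 and Maff encode bZIP partners outside the Fos and Jun groups. Atf3, a stress-induced factor that represses many genes as a homodimer, had 6.37, 3.53 and 9.23 FPKM in TJ0113 kidneys, 21.3, 11.2 and 57.5 FPKM in vehicle kidneys and 0.50, 0.532 and 0.667 FPKM in sham kidneys. As with Fos, the 3 groups did not overlap, but vehicle library 2 was within a short distance of TJ0113 library 3. With injury Atf3 stood 2.80 ± 0.43 log2 units above sham (adjusted p = 0.00306), a larger change than those of the other 7 tested AP-1 genes. Maff, a small Maf protein that lacks an activation domain and pairs with NRF2 and its relatives as well as with Fos, had 7.44, 3.41 and 7.65 FPKM in TJ0113 kidneys, 11.9, 4.50 and 16.5 FPKM in vehicle kidneys and 0.872, 0.705 and 0.909 FPKM in sham kidneys. Vehicle library 2 lay below TJ0113 libraries 1 and 3. The injured level was 1.96 ± 0.35 log2 units above sham (adjusted p = 0.00368).

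Since FPKM is per length, the levels can be ordered within a group. In TJ0113 kidneys the order of means was Jun (38.1 ± 20.2 FPKM, SD), Junb (36.2 ± 13.5), Jund (20.5 ± 4.32), Atf3 (6.37 ± 2.85), Maff (6.17 ± 2.39), Fosl2 (5.49 ± 2.26), Fos (5.39 ± 3.11), Fosb (0.360 ± 0.194) and Fosl1 (0.281 ± 0.225). The 3 Jun genes were apart from the rest there, the 4 genes from Atf3 to Fos overlapped their neighbours, and Fosb and Fosl1 were apart below. In vehicle kidneys the order was Jun (60.4 ± 25.6 FPKM), Junb (46.9 ± 28.3), Atf3 (30.0 ± 24.4), Fos (23.8 ± 15.1), Jund (22.1 ± 8.30), Fosl2 (12.7 ± 7.59), Maff (10.98 ± 6.07), Fosb (1.71 ± 1.05) and Fosl1 (0.559 ± 0.345), and each of the first 6 overlapped the next, while Maff was apart from Fosb. In sham kidneys Jun (8.89 ± 1.45 FPKM) and Junb (7.50 ± 1.72) overlapped, Jund (4.96 ± 0.609) followed apart, and Fos (1.71 ± 0.543) overlapped Fosl2 (1.20 ± 0.0569). Below them Maff (0.828 ± 0.109), Atf3 (0.566 ± 0.0888) and Fosb (0.0606 ± 0.0280) each stood apart from the next.

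Between TJ0113 and vehicle kidneys, the contrast by which the genes were chosen, the mean was lower with TJ0113 for all 9, but by very different amounts. The TJ0113 mean was 0.210 of the vehicle mean for Fosb, 0.212 for Atf3 and 0.226 for Fos. It was 0.434 for Fosl2, 0.503 for Fosl1, 0.561 for Maff and 0.631 for Jun. Junb, at 0.772, and Jund, at 0.926, differed least. Without vehicle library 3 the ratios of Fos (0.355) and Atf3 (0.392) moved by over 1.5 times, as did that of Junb (1.18), which with that of Jund (1.18) then stood above 1. Without TJ0113 library 3 the ratio of Fosl1 was 0.283. The median library gives another picture of the Jun family: it was higher with TJ0113 for Jun (49.2 against 48.8 FPKM in vehicle kidneys), Junb (42.2 against 34.8) and Jund (22.4 against 17.7), and lower with TJ0113 for the other 6.

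Fos and Atf3 were the 2 of the 9 genes whose TJ0113 libraries all lay below all vehicle libraries, beside 4.39% of tested genes; the other 7 overlapped. No tested gene of the table, 0% of 15453, was called between TJ0113 and vehicle (limma; smallest adjusted p = 0.796; 927 genes at an unadjusted p under 0.05). As a description, the log2 difference of TJ0113 minus vehicle was -1.87 for Fos, -1.82 for Atf3, -0.91 for Fosl2, -0.88 for Fosb, -0.73 for Jun, -0.62 for Maff, -0.25 for Junb and -0.04 for Jund. Vehicle library 3 held the highest level of all 9 genes. Without it the difference as deposited was -1.44 for Fos, -1.24 for Atf3, -0.55 for Fosl2, -0.44 for Jun and -0.30 for Maff, and it turned to 0.16 for Junb and 0.21 for Jund, which were then higher with TJ0113. TJ0113 library 2 was the lowest of the 6 injured libraries for 8 of the 9 genes, all but Fosb. Without it the difference was -1.62 for Fos, -1.53 for Atf3, -0.33 for Maff and -0.20 for Jun, and it turned to 0.06 for Junb and 0.11 for Jund. Without vehicle library 2 it was -2.04 for Fos, -2.37 for Atf3, -1.48 for Fosl2, -1.13 for Maff, -0.61 for Junb and -0.23 for Jund. Leaving out any other injured library gave -0.49 to -0.42 for Junb and -0.20 to -0.14 for Jund.

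The difference from sham in each injured group uses the values by which the genes were chosen, and both groups share the sham libraries, so these values are a description and no p-value is given. Atf3 stood 1.90 log2 units above sham in TJ0113 kidneys and 3.71 in vehicle kidneys. Fos stood 0.89 above sham in TJ0113 kidneys and 2.75 in vehicle kidneys. Fosl2 stood 1.24 above sham in TJ0113 kidneys and 2.15 in vehicle kidneys, Maff 1.65 in TJ0113 kidneys and 2.26 in vehicle kidneys, and Jun 1.55 in TJ0113 kidneys and 2.27 in vehicle kidneys. Junb, at 1.81 in TJ0113 kidneys and 2.06 in vehicle kidneys, and Jund, at 1.57 in TJ0113 kidneys and 1.61 in vehicle kidneys, stood nearly equally far from sham in both. Limma called 6 of the 7 genes higher in TJ0113 kidneys, beside 28.9% of tested genes, and 7 of 7 in vehicle kidneys, beside 31.3%, and nothing is read from these counts. The TJ0113 count was 2 without TJ0113 library 3 or without sham library 2, 3 without sham library 3, and 7 when the TJ0113 and sham groups were fitted alone.

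**Figure D2:**
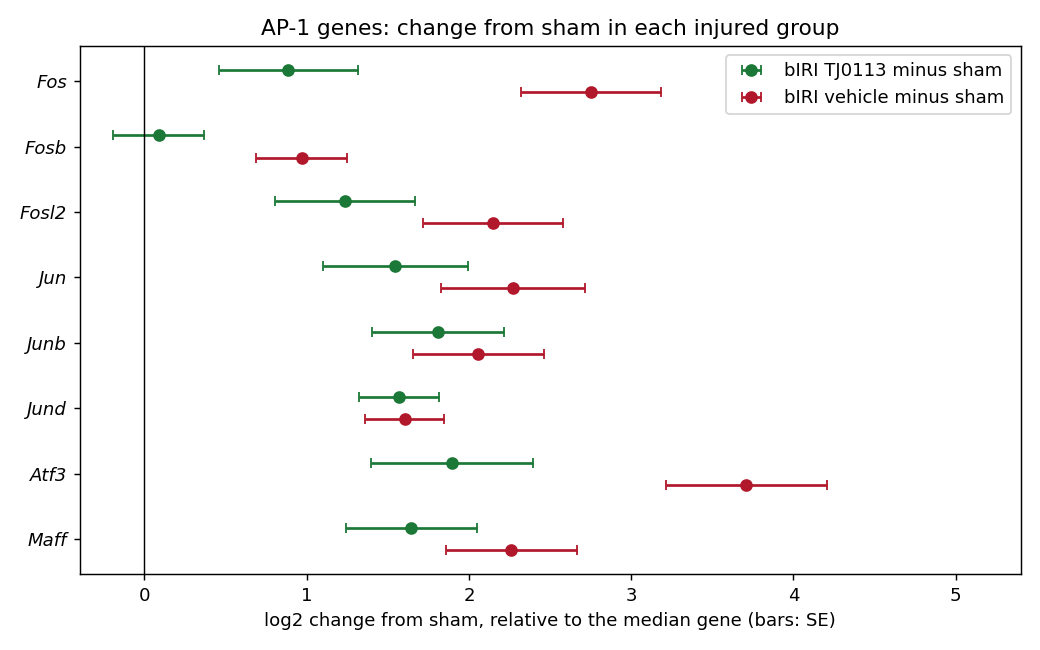
Change of the 8 tested AP-1 genes from sham in each injured group, on the log2(FPKM + 1) scale relative to the median gene, with limma's SE as bars. TJ0113 points lie to the left of vehicle points for Fos (0.89 and 2.75) and Atf3 (1.90 and 3.71), and on them for Jund (1.57 and 1.61).

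The balance between the partners can be described from the sums of the families. Summed over Fos, Fosb, Fosl1 and Fosl2, the Fos family had 10.3, 6.57 and 17.7 FPKM in TJ0113 kidneys, 27.8, 24.2 and 64.2 FPKM in vehicle kidneys and 3.29, 3.30 and 2.32 FPKM in sham kidneys. The Jun family summed to 113.7, 51.0 and 119.4 FPKM in TJ0113 kidneys, 95.3, 92.3 and 200.6 FPKM in vehicle kidneys and 22.1, 21.2 and 20.8 FPKM in sham kidneys. The injured groups overlapped in the Jun sum and not in the Fos sum.

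The Fos family made up 8.31%, 11.4% and 12.9% of the summed Fos and Jun family FPKM in TJ0113 kidneys, 22.6%, 20.8% and 24.3% in vehicle kidneys and 13.0%, 13.4% and 10.1% in sham kidneys. The vehicle libraries were close to each other in this share, although their Fos sums differed widely, and TJ0113 and sham libraries overlapped. The ratio of Fos to Jun was 0.0859, 0.205 and 0.177 in TJ0113 kidneys, 0.307, 0.352 and 0.458 in vehicle kidneys and 0.269, 0.203 and 0.119 in sham kidneys. Fos alone made up 41.0% to 50.4% of the Fos family in TJ0113 kidneys, 47.3% to 70.9% in vehicle kidneys and 46.9% to 62.8% in sham kidneys. The share and the ratio use the values by which the genes were chosen, and messenger RNA shares do not give the dimers present.

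**Figure D3:**
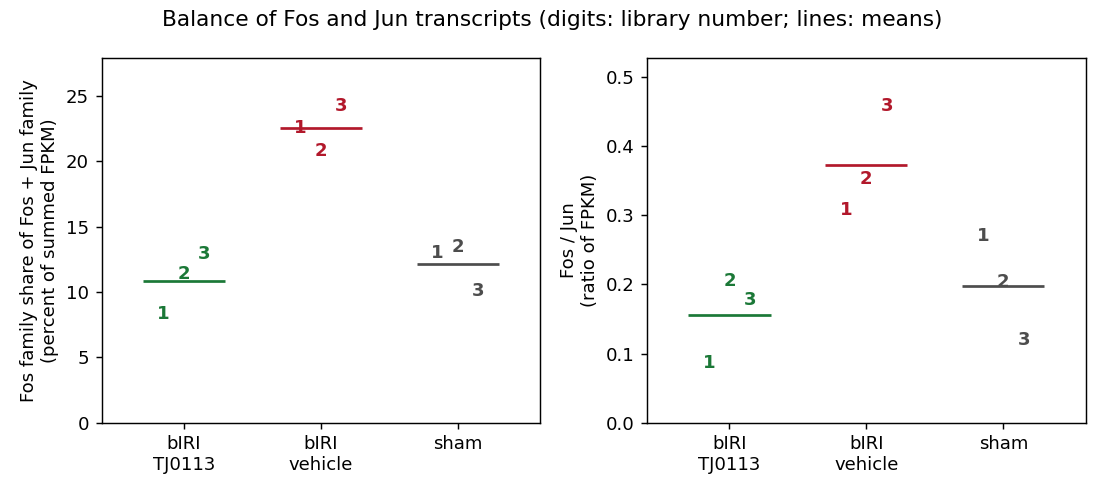
Fos family share of the summed Fos and Jun family FPKM in percent (left) and the ratio of Fos to Jun FPKM (right) in bIRI TJ0113, bIRI vehicle and sham cortex. Digits are libraries and lines are means of 3. Vehicle libraries lie between 20.8% and 24.3%, above all TJ0113 and sham libraries, which overlap each other.

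Markers of other cell types also differed between the libraries. The counts of markers that rose or fell with injury stand beside 38.5% of all tested genes called higher and 7.8% called lower. Summed macrophage markers, of which 11 of 12 rose with injury and none was at 0 in any library, were 692.8, 574.5 and 1184 FPKM in TJ0113 kidneys, 1063, 369.7 and 1999 FPKM in vehicle kidneys and 76.6, 56.6 and 59.0 FPKM in sham kidneys. Fibroblast and pericyte markers, of which 10 of 10 rose, summed to 178.7 to 291.5 FPKM in TJ0113 kidneys, 91.2 to 396.3 FPKM in vehicle kidneys and 24.1 to 33.3 FPKM in sham kidneys. T and NK cell markers, of which 7 of 8 tested rose, summed to 14.4 to 20.9 FPKM in TJ0113 kidneys, 9.57 to 26.0 FPKM in vehicle kidneys and 2.11 to 4.17 FPKM in sham kidneys. The 3 tested neutrophil markers rose, to list sums of 5.46 to 43.9 FPKM in TJ0113 kidneys and 4.51 to 33.9 FPKM in vehicle kidneys, against 0.722 to 1.72 FPKM in sham kidneys, with Ly6g and S100a8 at 0 in some libraries. Of the 15 proximal tubule markers 7 fell.

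Vehicle library 3, highest for the AP-1 genes, also had the highest macrophage, fibroblast and T cell sums and the lowest proximal tubule sum. The proximal tubule sum follows Kap, at 652.6 FPKM in vehicle library 3 and 24420 in vehicle library 2, and its other genes did not all move alike. Among the vehicle libraries, library 3 was lowest for Lrp2 (35.2 FPKM, against 55.0 and 75.2). It was highest for Slc5a2 (96.4, against 38.9 and 82.9) and Slc5a12 (36.0, against 15.2 and 23.8). The part of cell makeup in the rise of the AP-1 genes with injury was not tested, nor was its part in their difference between TJ0113 and vehicle. Between TJ0113 and vehicle, none of the genes in these marker lists separated the groups without overlap. Among all tested genes, 4.39% were lower and 2.96% higher without overlap. Of the 6 injured libraries, vehicle library 2 had the lowest macrophage, fibroblast and T cell sums, and TJ0113 library 2 was the lowest for 8 of the 9 AP-1 genes. Of 8 endothelial genes and 5 red cell genes none was called with injury by limma, with 1 and 0 at an unadjusted p under 0.05. Of 6 thick ascending limb and distal tubule genes 1 fell, beside 7.8% of all tested genes called lower and 38.5% called higher.

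Other bZIP genes that can join AP-1 dimers moved less. Of 12 matched, 9 were tested, 6 rose with injury and none fell, beside 38.5% called higher and 7.8% called lower among all tested genes (2 rose and 1 fell after median-ratio scaling, 3 rose and none fell after quantile normalization), with a median log2 change of 0.33. Batf3, a small factor of dendritic cells that pairs with Jun, had 1.87, 2.16 and 3.39 FPKM in TJ0113 kidneys, 1.96, 1.60 and 4.40 FPKM in vehicle kidneys and 0.486, 0.400 and 0.432 FPKM in sham kidneys (0.98 ± 0.23 log2 units with injury; adjusted p = 0.00495). Batf, its lymphocyte relative, rose by 0.58 ± 0.21 (adjusted p = 0.011), Mafg, a small Maf like Maff, by 0.33 ± 0.12 (adjusted p = 0.00598) and Atf7, an ATF2 relative, by 0.25 ± 0.17 (adjusted p = 0.0299). Batf and Batf3 did not separate TJ0113 from vehicle. Between TJ0113 and vehicle no gene of the list was called by limma (0 at an unadjusted p under 0.05), and Atf7 differed by -0.25 ± 0.19 (adjusted p = 0.83).

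Upstream of AP-1 stand the MAP kinases and the factors that bind its promoters, and of 29 tested genes of these 18 rose and 1 fell with injury, beside 38.5% and 7.8% of all tested genes, with a median log2 change of 0.25. After median-ratio scaling, which centres the libraries on a common median, 11 rose and 6 fell, and after quantile normalization 10 rose and 5 fell. Mapk11 and Mapk13, which encode p38 kinases, rose by 1.48 ± 0.30 (adjusted p = 0.00431) and 0.79 ± 0.15 (adjusted p = 0.00329). Mef2d, a factor that binds the Jun promoter, rose by 0.67 ± 0.15 (adjusted p = 0.00369). The gene that fell was Map2k6, a kinase that activates p38, with 3.90, 4.45 and 3.18 FPKM in TJ0113 kidneys, 3.93, 4.32 and 3.04 FPKM in vehicle kidneys and 7.68, 7.96 and 7.39 FPKM in sham kidneys (-1.14 ± 0.13; adjusted p = 0.00337). The injured groups overlapped in its level and both lay well below sham.

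Between TJ0113 and vehicle, 22 of the 29 upstream genes had a log2 difference below 0 as deposited, beside 56.2% of all tested genes, and 18 of 29 relative to the median gene. None was called by limma (0 at an unadjusted p under 0.05). Srf, the factor that binds the CArG box of early response promoters, had 9.37, 11.15 and 8.73 FPKM in TJ0113 kidneys, 11.5, 11.22 and 22.1 FPKM in vehicle kidneys and 6.33, 5.61 and 5.48 FPKM in sham kidneys. Its TJ0113 and vehicle libraries were separated by a narrow margin, and the difference of -0.47 ± 0.23 did not pass (adjusted p = 0.796). Map2k4, a kinase that activates JNK, had 11.6, 10.9 and 10.9 FPKM in TJ0113 kidneys, 13.3, 12.2 and 14.3 FPKM in vehicle kidneys and 11.3, 12.0 and 11.4 FPKM in sham kidneys, a difference of -0.20 ± 0.11 between TJ0113 and vehicle that did not pass either (adjusted p = 0.796).

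Genes described in the literature as AP-1 targets in various cells rose with injury in 18 of 21 tested and 1 fell, beside 38.5% and 7.8% of all tested genes, and the median log2 change was 2.0. Ccl2, a chemokine that draws monocytes, had 35.3, 14.7 and 34.0 FPKM in TJ0113 kidneys, 26.3, 15.2 and 61.3 FPKM in vehicle kidneys and 0.551, 0.230 and 0.202 FPKM in sham kidneys (4.16 ± 0.41; adjusted p = 0.00105). The matrix protein gene Spp1 (osteopontin) rose by 4.17 ± 0.50 (adjusted p = 0.00204), the protease inhibitor gene Timp1 by 3.93 ± 0.47 (adjusted p = 0.00203) and the adhesion receptor gene Cd44 by 2.79 ± 0.31 (adjusted p = 0.00146). The TJ0113 and vehicle libraries of these 4 genes overlapped. Timp1, for instance, had 30.4, 10.9 and 46.0 FPKM in TJ0113 kidneys, 24.1, 10.1 and 40.5 FPKM in vehicle kidneys and 0.338, 0.294 and 0.291 FPKM in sham kidneys. The gene that fell with injury was the cyclin gene Ccnd1, at -0.89 ± 0.18 log2 units (adjusted p = 0.0218), named because it was the only gene of the list called lower.

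Between TJ0113 and vehicle the target list had a median log2 difference of -0.17 relative to the median gene, with 16 of 21 genes below 0 on that scale and none called by limma (2 at an unadjusted p under 0.05, Hbegf and Vegfa). Hbegf, a ligand of the EGF receptor made by injured tubules, was the only gene of the 27 listed whose groups did not overlap in that comparison. Among all tested genes, 4.39% were lower and 2.96% higher without overlap, so nothing is read from this count. It had 4.60, 3.77 and 6.84 FPKM in TJ0113 kidneys, 14.2, 9.33 and 18.8 FPKM in vehicle kidneys and 4.12, 3.37 and 4.36 FPKM in sham kidneys. Its TJ0113 libraries overlapped sham, and the difference of -1.27 ± 0.25 from vehicle did not pass over all genes (adjusted p = 0.796). Vegfa, a growth factor of vessels, leaned the other way (0.46 ± 0.17; adjusted p = 0.796).

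**Figure D4:**
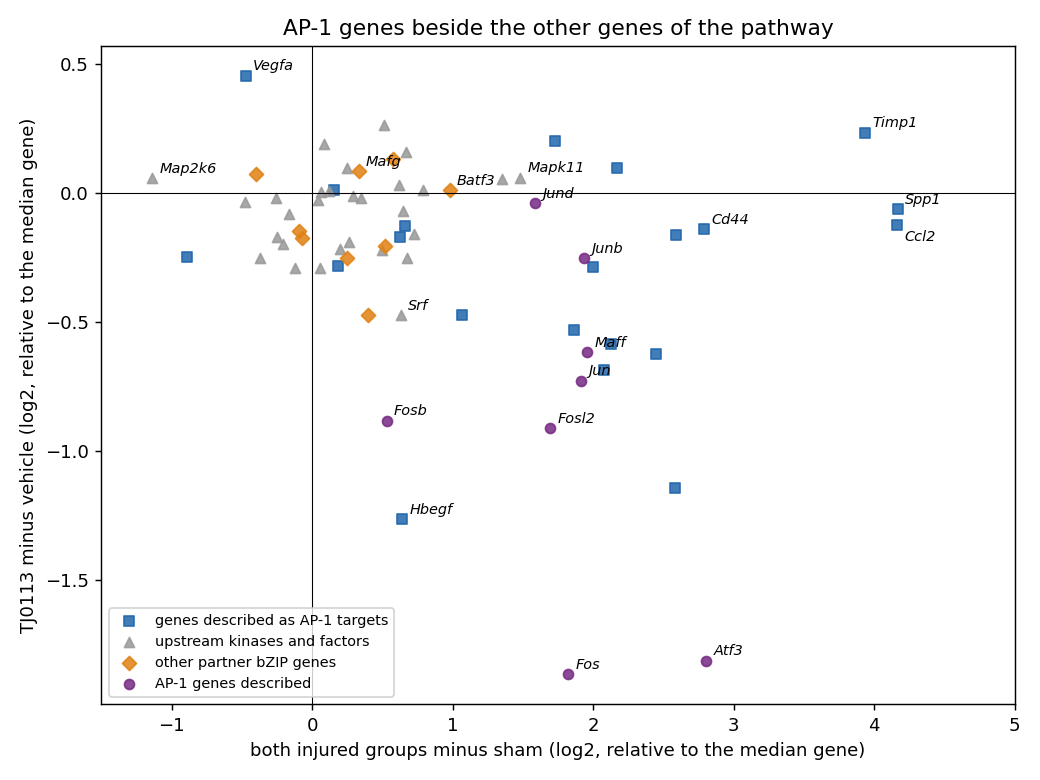
Each tested gene of 4 lists by its log2 change with injury (both injured groups minus sham, horizontal) and its log2 difference between TJ0113 and vehicle (vertical), both relative to the median gene. Fos (1.82 and -1.87) and Atf3 (2.80 and -1.82) lie lowest; the target genes Ccl2, Spp1 and Timp1 lie farthest right with little vertical difference, and Hbegf lies low at -1.27.

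The genes whose pattern over the 9 libraries was most like the AP-1 genes were found by the root mean square difference of z-scored log2 levels, among 15445 genes. Nearest to the mean pattern of the 8 tested AP-1 genes were Arl6ip6 (0.143), Piezo1 (0.143), Ier2 (0.145), Gdf15 (0.148), Nt5dc3 (0.153), Mef2d (0.153), Trabd (0.160) and Tprn (0.162). Ier2, an immediate early gene itself, had 17.8, 12.9 and 24.9 FPKM in TJ0113 kidneys, 24.2, 18.5 and 50.9 FPKM in vehicle kidneys and 6.62, 6.45 and 4.90 FPKM in sham kidneys. Gdf15, a stress-induced hormone gene, had 28.2, 9.22 and 32.3 FPKM in TJ0113 kidneys, 31.8, 34.0 and 83.9 FPKM in vehicle kidneys and 4.02, 3.27 and 2.11 FPKM in sham kidneys. As in the AP-1 genes, vehicle library 3 was highest in both and sham apart below. Both genes were picked for likeness to that pattern in the same libraries, so this follows from the search.

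Taken gene by gene, the nearest patterns differed. Fos lay nearest to Egr1 (0.201), an immediate early zinc finger gene, which had 11.1, 7.69 and 24.0 FPKM in TJ0113 kidneys, 32.1, 22.6 and 67.4 FPKM in vehicle kidneys and 6.10, 6.82 and 3.04 FPKM in sham kidneys. Egr1 overlapped between TJ0113 and vehicle at 1 pair of libraries, TJ0113 library 3 and vehicle library 2. Fosl2 lay nearest to Egr2 (0.0807), another gene of the Egr family, and Fosb to Hspa1a (0.387), an inducible heat shock gene. Jun lay nearest to Sox9 (0.156), a factor of regenerating tubule cells, Junb to Rela (0.0786), a subunit of NF-kappa-B, Jund to Cldn3 (0.0602), a tight junction gene, Atf3 to Nt5dc3 (0.134) and Maff to Ifngr2 (0.0585), a chain of the interferon gamma receptor. Within the family, Atf3 was closest to the mean of the 8 (0.148) and Fosb the farthest (0.561). These values describe 9 libraries that share their groups.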

How the data were processed

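Per the labels, cortex RNA was extracted with TRIzol and 1 µg entered paired-end messenger RNA libraries (Abclonal kit). The submitters' processing notes name HISAT2; version, genome build and counting tool: not given in the sources used here. Authors deposited FPKM, which were used unscaled. Multiplied by exon length (GENCODE M21, which names 97.8% of identifiers), 98.7% to 99.0% of values under 20 steps lay within 0.02 of a whole number, which gave the reads; floors cover counting error only. No library repeats another: replicates shared at most 6 identical values among 13385 genes. Strand use in counting is not given, so reads of antisense partners cannot be told apart.

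Groups were compared with limma 3.58.1 (R 4.3.3, variance trend) on log2(FPKM + 1) in 1 fit of 9 libraries, for the 15453 genes whose mean reached 0.5 FPKM, adjusted by Benjamini-Hochberg at 0.05. The fit was tested on simulated data. Python 3.11.15, pandas 2.3.3, numpy 2.4.6 and matplotlib 3.10.9 did the rest. Members and lists were chosen with earlier results of these data known. From each pathway list the text names the 4 genes with the smallest p with injury and the 2 with the smallest p between TJ0113 and vehicle, plus the genes nearest in pattern; Ccnd1 was added after its value was seen. Some genes that meet this rule are left out of the text. Nrl was not analysed here.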

Additional observations from a re-analysis of the deposited data

How the results depend on the processing

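The alternative settings were 17 (pseudocount, filter, scaling, variance model, replicate block, each library left out). For the AP-1 genes in a single injured group against sham, a fit of those 2 groups alone made them 18. In each of the 17, the 7 tested AP-1 genes other than Fosb kept an adjusted p under 0.05 (limma) for injured against sham. The same 7 did so in each of the 18 in vehicle against sham. Vehicle against sham and TJ0113 against sham use values by which the genes were chosen, so nothing is read from their calls. With all libraries 38.5% of all tested genes were called higher for injured, 31.3% for vehicle and 28.9% for TJ0113 against sham. As a description, Junb and Jund were called in every setting in TJ0113 against sham. There the call was lost in 6 settings for Fosl2 and for Jun, in 3 for Atf3 and in 2 for Maff. Fos, not called with all libraries, was called in 5. Over all genes, leaving out a library gave 3231 to 9256 calls for injured against sham, where the fit of all libraries called 7161; 852 to 8826 for vehicle against sham, where it called 5676; and 1249 to 7336 for TJ0113 against sham, where it called 5384. With no filter on low values vehicle against sham gave 2933 calls and TJ0113 against sham 3205. TJ0113 against vehicle gave 0 calls in each setting. With injury the other bZIP list had 3 to 7 genes called, the upstream list 11 to 23 and the target list 14 to 20. Of the calls with injury 83.2% were higher as deposited, and 49.6% after median-ratio scaling and 45.1% after quantile normalization, where the median gene stood at -0.01 and -0.04 log2 units.

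The labels used here give no pairing by replicate number. After group means were removed, same-numbered TJ0113 and vehicle libraries correlated at -0.06, 0.50 and 0.56. Same-numbered TJ0113 and sham libraries correlated at -0.15, 0.03 and 0.03, and vehicle and sham libraries at -0.08, -0.08 and -0.24. Library 3 was the highest of its group for all 9 AP-1 genes in both TJ0113 and vehicle kidneys. Whether libraries 2 and 3 share a batch or pairing by number was not tested. With the number as a block, 7546 genes were called for injured against sham, 6394 for vehicle and 6062 for TJ0113 against sham. The 7 tested AP-1 genes other than Fosb stayed called with this block for injured and for vehicle against sham. Depth limits Fosl1 and Fosb, whose sham levels rest on 0 reads and on 14 to 38 reads per library. The ratios of means without a library were added after seeing the data.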
